A study of Mus musculus with 17 samples.

Results

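The promoters examined here belong to the nuclear genes for oxidative phosphorylation in mouse kidney. They were chosen by name as the autosomal protein-coding genes of the mm10 GENCODE annotation whose symbols begin with Ndufa, Ndufb, Ndufc, Ndufs, Ndufv, Sdh, Uqcr, Cox4, Cox5, Cox6, Cox7, Cox8 or Atp5. This rule took 95 of 20807 autosomal protein-coding gene models and used no measured value. Open chromatin had been mapped by ATAC-seq, in which a transposase cuts accessible DNA and the cut ends are sequenced, in kidneys of 17 male mice, with 20000 cells per library. The Ctrl group held C57BL/6 mice (n = 5, Ctrl 1 to 5). The Case group held diabetic db/db mice, BKS.Cg-Dock7m +/+ Leprdb/J, which lack a working leptin receptor (n = 6, Case 1 to 6). The Dapa group held db/db mice that received dapagliflozin, which blocks glucose reuptake by SGLT2 in the proximal tubule, for 6 weeks by gavage at 1 mg/kg/day (n = 6, Dapa 7 to 12). All mice were 8 weeks old at the start, and Ctrl and Case mice were given saline in place of the drug. Diabetes, genotype and background strain differed together between Ctrl and both db/db groups and cannot be told apart, and in whole kidney a smaller share of a cell type and less accessibility per cell cannot be told apart either.

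Oxidative phosphorylation takes electrons from nutrients through complexes I to IV of the inner mitochondrial membrane, of which I, III and IV pump protons, and returns the protons through complex V, the ATP synthase. Most subunits are encoded in the nucleus, and their promoters are typical of genes that every cell uses, rich in CpG and bound by factors such as NRF1, GABP and YY1. The kidney is among the organs richest in mitochondria, because proximal tubule cells reabsorb solutes, glucose included, at the expense of ATP.

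Each library was deposited as a list of MACS2 summits, the bases at which accessibility peaked, each with a score. For each gene and mouse, the best-scoring summit within 1 kb of any annotated transcription start was found and given its rank percentile within that mouse's list. The strongest summit of a list lies at 100, the weakest near 0, and a gene without a summit was set to 0. The lists held 29702 (Case 4) to 56659 (Ctrl 2) summits, with 45444 ± 7197 in the 5 Ctrl mice (mean ± SD), 37299 ± 8784 in the 6 Case mice and 40574 ± 6987 in the 6 Dapa mice. The 3 shortest lists of the Case group were those of Case 2, 3 and 4, with 31176, 29845 and 29702 summits. Several results are given again on equal-length lists, in which every mouse keeps its 29702 highest-scoring summits, and without these 3 mice. Among 16 kidney epithelium markers, 71.2% ± 7.13 had a summit in the 5 Ctrl mice (mean ± SD), 59.4% ± 13.6 in the 6 Case mice and 58.3% ± 5.10 in the 6 Dapa mice. The loop of Henle marker Slc12a1 and the collecting duct marker Aqp2 had none in any mouse, whereas Umod, also of the loop of Henle, had one in 3 Ctrl, 4 Case and 2 Dapa mice, and Atp6v1b1, of the collecting duct, in 2 of each group. The markers with an unadjusted limma p under 0.05 between Case and Ctrl were Slc5a2, which encodes SGLT2, at 61.1 in Ctrl and 14.7 in Case (limma adjusted p = 0.128), and the distal tubule gene Calb1, with a summit in 4 Ctrl and 0 Case mice (limma adjusted p = 0.154). Among 10 leukocyte markers the percentage with a summit ran from 0 to 10 in Ctrl, from 0 to 30 in Case and from 0 to 20 in Dapa mice, and Ptprc, Cd79a and Itgam had none. The part of these cell types in the results below was not tested.

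The first question was how accessible these promoters were in kidney. In all 17 mice, 62 of the 95 members had a summit (65.3%), against 34.6% of all autosomal protein-coding genes. A further 26 members (27.4%) had a summit in some mice, against 41.6% of all genes, and 7 (7.37%) had none in any mouse, against 23.8%. The mean percentile over the 17 mice was above 90 for 27 members (28.4%), against 13.1% of all genes. Among genes with a summit in at least 1 mouse, the median of this mean was 80.8 for the 88 members and 63.1 for all 15854 genes. The members were not alone in this. A summit in all 17 mice was found for 23 of 37 other respiratory chain genes and 14 of 20 regulators of nuclear respiratory genes. Their median mean percentiles were 75.6 and 85.3. Members that ranked high varied less between mice. The standard deviation over the 17 mice ran from 0.945 to 8.32 points among the 27 members above 90, and from 10.8 to 33.8 points among the 11 members with a summit whose mean was below 50. A percentile cannot pass 100, and the part of that limit in the narrower spread was not tested.

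**Figure D1:**
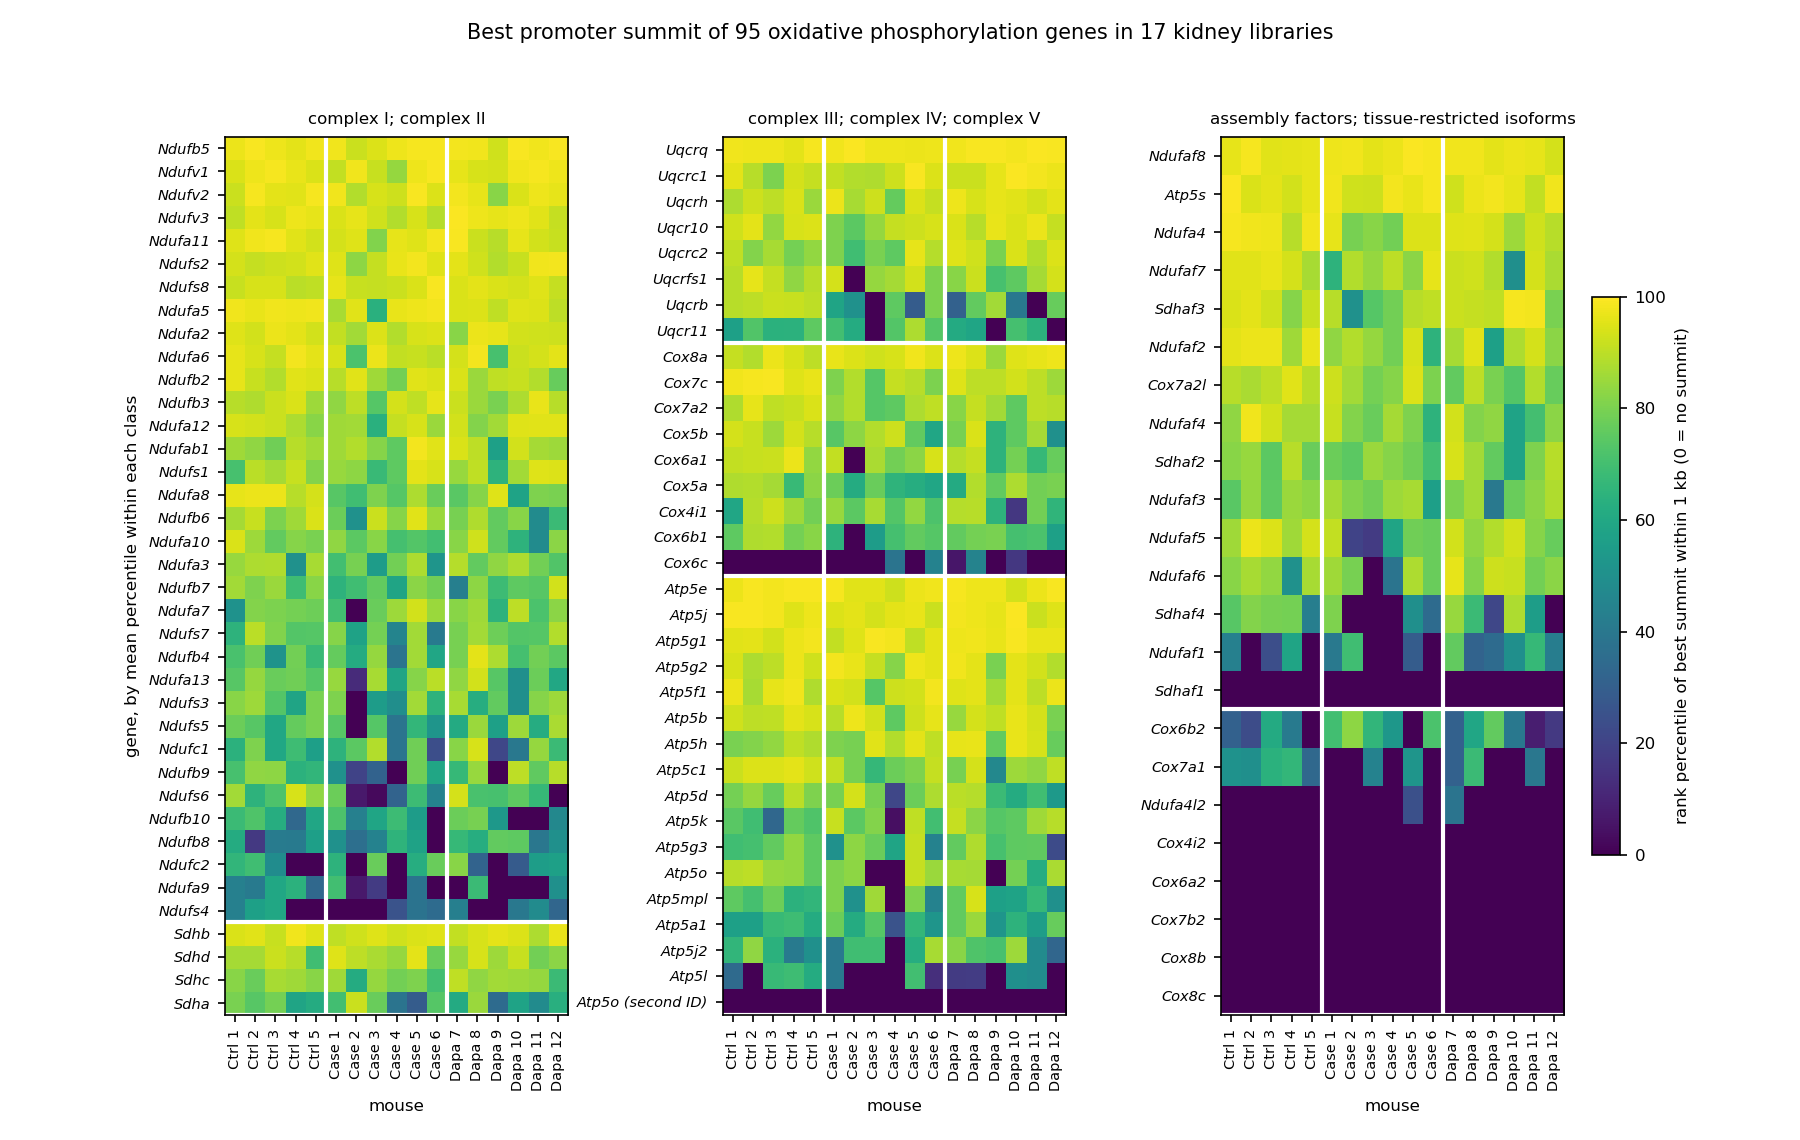
Rank percentile of the best summit within 1 kb of a transcription start (colour, 0 where no summit was called) for each of the 95 members (rows, by class and mean) in each of the 17 mice (columns). In every mouse 45 members were above 50 and 30 above 70, 7 had no summit in any mouse, and missing summits were most frequent in Case 2, 3 and 4 and Dapa 9.

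Complex I, the NADH dehydrogenase, had 34 members, all with a summit in at least 1 mouse and 24 with a summit in every mouse. Their mean percentiles ran from 24.9 to 97.1, with a median of 78.8. The highest was Ndufb5, an accessory subunit, at 97.1 ± 2.12 (SD, n = 17). The genes of the flavoprotein arm, which takes electrons from NADH, stood close together, with Ndufv1 at 95.3, Ndufv2 at 94.8 and Ndufv3 at 94.5. The lowest was Ndufs4, an accessory subunit whose loss causes Leigh syndrome, at 24.9 ± 22.9 (SD, n = 17), with a summit in 3 Ctrl, 3 Case and 4 Dapa mice.

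Complex II, the succinate dehydrogenase of the citric acid cycle, is encoded by 4 genes, and all had a summit in all 17 mice. The iron-sulfur subunit gene Sdhb was the highest, at 93.8 ± 2.55 (SD, n = 17), and the catalytic flavoprotein gene Sdha the lowest, at 63.7 ± 17.9 (SD, n = 17). Sdha ran from 29.2 in Case 5 to 91.9 in Case 2, which is the whole of its range over the 17 mice. The membrane anchors Sdhc and Sdhd lay between, at 80.7 and 86.5.

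Complex III, the cytochrome bc1 complex, had 8 members with a median mean percentile of 88.2, the highest median of the 5 complexes. Uqcrq, which encodes a small subunit, was the highest member and the least variable of the 88 with a summit, at 98.0 ± 0.945 (SD, n = 17). Its values lay between 96.0 (Ctrl 4) and 99.5 (Dapa 11), so that every mouse of every group placed it among its strongest summits. This summit lay at −298 bp from the nearest Uqcrq start and within 1 kb of a start of Gdf9, the divergent neighbour, so it is shared by both genes. Uqcr11 was the lowest, at 56.1 ± 27.8 (SD, n = 17).

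Complex IV, the cytochrome c oxidase, had 9 members that are used in most tissues, of which 6 had a summit in every mouse. Cox8a was the highest, at 94.0 ± 3.52 (SD, n = 17). Cox6c was the lowest of the widely used subunit genes with a summit, at 8.82 ± 16.6 (SD, n = 17). It had no summit in any Ctrl mouse, and among db/db mice it reached 38.4 in Case 4, 44.3 in Case 6, 6.19 in Dapa 7, 44.6 in Dapa 8 and 16.3 in Dapa 10. The difference in percentile between Case and Ctrl did not pass the test (limma adjusted p = 0.550, exact permutation p = 0.455).

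Complex V, the ATP synthase, had 17 gene models, of which 12 had a summit in every mouse. The highest was Atp5e, the epsilon subunit of the catalytic head, at 97.2 ± 2.03 (SD, n = 17), followed by Atp5j at 96.3, whose start is shared with that of Gabpa, the DNA-binding subunit of GABP on the other strand. The lowest with a summit was Atp5l, subunit g of the membrane part, at 28.8 ± 27.7 (SD, n = 17). Atp5o has a pair of gene models in the annotation, of which the second (ENSMUSG00000116933.1) had no summit and the first (ENSMUSG00000022956.11) was at 68.5 ± 33.4 (SD, n = 17). The other 15 members are assembly factors and associated proteins that share the prefixes, of which 11 had a summit in every mouse and Sdhaf1 had none.

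Of 8 isoforms that other tissues use, 5 had no summit in any of the 17 mice. These were Cox4i2, an isoform of lung and oxygen-sensing cells, Cox6a2 and Cox8b of heart and skeletal muscle, and Cox7b2 and Cox8c of testis. Ndufa4l2, induced by hypoxia, had a summit in Case 5 (24.5) and Dapa 7 (38.6) only. Cox7a1, the muscle isoform of subunit 7a, had one in 5 Ctrl, 2 Case and 3 Dapa mice, at 29.4 ± 27.2 over all (SD, n = 17). Cox6b2, the testis isoform of subunit 6b, had one in 15 of 17 mice at 43.0 ± 27.0 (SD, n = 17), against 69.9 ± 20.2 (SD, n = 17) for its widely used counterpart Cox6b1. This order held in Ctrl (31.3 against 82.7) and Dapa (38.5 against 72.3), whereas the Case means were close (57.2 against 56.7). Among the marker lists of those tissues, 1 of 8 skeletal and heart muscle markers (Ckm) and 1 of 8 male germ cell markers (Dazl) had a summit in every mouse. The distance of 1 kb decided some of these calls. With 3 kb, Ndufa4l2 had a summit in 14 mice in place of 2, Sdhaf1 in 17 in place of 0, Ndufb10 in 17 in place of 14, Cox6a2 in 3 in place of 0 and Cox4i2 in 1 in place of 0.

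The next question was what these promoters shared beyond their names. The best summit lay within 100 bp of a start for 74 of 88 members (84.1%), against 60.2% of the 15854 genes with a summit, with a median distance of 35.5 bp against 69.2 bp. Among genes with a summit in all 17 mice, the position of the best summit moved over a median of 142 bp between mice for the 62 members and 201 bp for all 7203 genes. Of these members Ndufa13 moved most, over 1884 bp, and its summit lay near starts of Tssk6 and Yjefn3. A start of another protein-coding gene lay on the other strand within 1 kb upstream for 33 of 95 members (34.7%), against 11.3% of all genes. Such divergent pairs included Ndufaf5 with Esf1, Atp5j with Gabpa, Ndufs6 with Mrpl36 and Sdhd with Timm8b, and a single summit cannot be assigned to one gene of a pair. The divergent members had a median mean percentile of 86.5, against 74.1 for the other 62 members. Over all genes the same medians were 84.4 and 17.6.

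**Figure D2:**
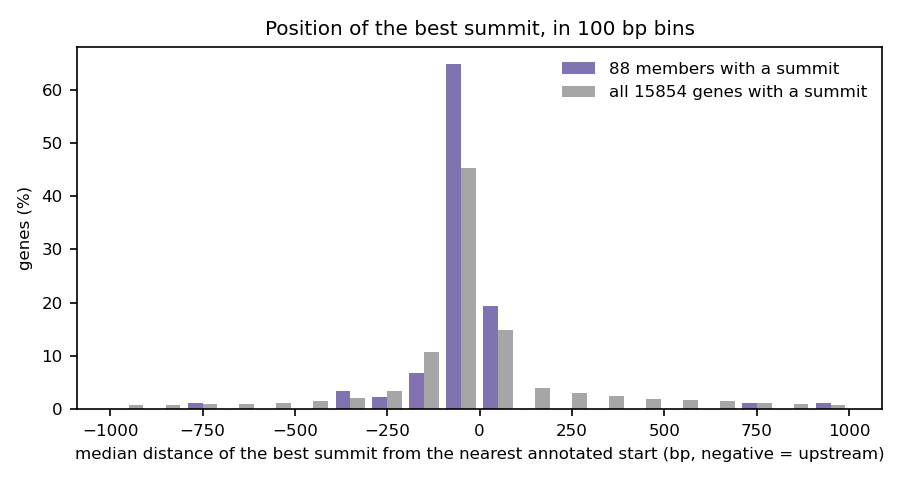
Median distance of the best summit from the nearest annotated start (x axis, bp, negative upstream) in bins of 100 bp, as the percentage of the 88 members (purple) and of all 15854 genes with a summit (grey). Both peak in the 100 bp before the start, and the members are more concentrated there.

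Promoter sequences of 300 bases, from 250 before to 50 after the start, were taken from RefSeq (GRCm38.p6, the same assembly as mm10) and matched 77 of 95 members with 82 promoters, and 16002 autosomal protein-coding genes with 19535. Their median ratio of observed to expected CpG was 0.831, against 0.5997 for all promoters, with a median GC content of 58.7% against 57.0%. Short motifs were searched on both strands, and a match describes the letters only. GCGCANGCG, the core of the NRF1 motif, occurred in 25 of 82 member promoters (30.5%), against 8.96% of all. CCGGAAG, of ETS factors such as GABP, occurred in 25.6% against 12.0%, and ATGGCGG, of YY1, in 15.9% against 5.35%. AAGGTCA, a core site of estrogen-related receptors, occurred in 9.76% against 3.96%, TGACGTCA (CREB/ATF) in 4.88% against 2.36%, and CTACANTTC (ZNF143 or THAP11) in 6.10% against 2.11%. The shares were closer for GGGCGG (SP/KLF, 47.6% against 48.1%), CCAAT (NF-Y, 41.5% against 37.7%), CACGTG (E-box, 8.54% against 8.04%) and TATAAA (11.0% against 12.4%). GC-rich motifs overlap CpG content, so that these shares are not independent of each other.

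Members with an NRF1 match did not rank above those without. The median mean percentile was 78.6 for the 24 members with an NRF1 match and 81.6 for the 53 without. Over all genes it was 77.4 with and 27.996 without. The members differed more by CpG content. With a ratio of at least 0.6 in at least 1 promoter, 49 of 66 members (74.2%) had a summit in every mouse, against 5 of 11 (45.5%) below it. Over all genes the same shares were 58.0% and 12.1%.

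The promoters of 4 members are given to show the range from a promoter open in every mouse to promoters with no summit. They are the highest-ranked member with a RefSeq entry, the member with the smallest p between Case and Ctrl, and a pair of isoforms of other tissues. Each is written 5′ to 3′ on the strand of the gene with 250 bases before the start, and capitals mark matches to the motifs above. Atp5e lies at chr2:174464052-174464351 (minus strand), and its best summit fell within this window in all 17 mice, at a median of 71 bases before the start. It has 6 matches, and between bases 149 and 200 stand an ETS match and a facing pair of NF-Y matches.
Atp5e: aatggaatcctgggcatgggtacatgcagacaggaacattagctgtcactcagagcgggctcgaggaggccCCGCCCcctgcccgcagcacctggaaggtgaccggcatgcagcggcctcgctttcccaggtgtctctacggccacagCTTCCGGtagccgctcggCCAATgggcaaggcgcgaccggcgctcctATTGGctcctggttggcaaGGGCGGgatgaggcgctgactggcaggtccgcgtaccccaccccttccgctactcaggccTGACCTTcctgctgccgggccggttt
Cox7c lies at chr13:86046746-86047045 (minus strand), with the summit inside the window in all 17 mice at a median of 35 bases before the start. Its single match is CTACATTTC at base 131.
Cox7c: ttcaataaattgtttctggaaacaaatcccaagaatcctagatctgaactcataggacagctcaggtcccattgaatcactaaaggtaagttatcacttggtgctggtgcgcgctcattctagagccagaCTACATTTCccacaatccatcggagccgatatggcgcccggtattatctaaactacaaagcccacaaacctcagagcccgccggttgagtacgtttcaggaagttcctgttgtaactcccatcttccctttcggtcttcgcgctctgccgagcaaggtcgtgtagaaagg
Cox7b2, at chr5:71548156-71548455 (minus strand), had no summit within 1 kb in any mouse, and it has 3 NF-Y matches, 1 SP/KLF match and 1 TATA match.
Cox7b2: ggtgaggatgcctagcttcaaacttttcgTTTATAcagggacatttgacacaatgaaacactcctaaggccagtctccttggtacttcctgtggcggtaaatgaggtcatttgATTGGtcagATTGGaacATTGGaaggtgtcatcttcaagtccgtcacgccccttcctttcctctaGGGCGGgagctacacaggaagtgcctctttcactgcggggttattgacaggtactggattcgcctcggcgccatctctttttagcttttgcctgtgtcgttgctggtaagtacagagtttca
Cox8b, at chr7:140900397-140900696 (minus strand), had none either. Its CpG ratio was 0.115, against 0.674 for Atp5e, 0.823 for Cox7c and 0.564 for Cox7b2. Its single match is the TATA motif, which begins 4 bases after the start.
Cox8b: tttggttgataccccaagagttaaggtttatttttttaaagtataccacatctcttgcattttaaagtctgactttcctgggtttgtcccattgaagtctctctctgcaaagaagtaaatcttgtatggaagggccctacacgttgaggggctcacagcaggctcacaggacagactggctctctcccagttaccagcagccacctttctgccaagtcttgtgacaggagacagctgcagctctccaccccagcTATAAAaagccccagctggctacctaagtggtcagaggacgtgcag

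The study then allowed the members to be compared between healthy, diabetic and treated mice. Per mouse, the median percentile over all 95 members was 85.7 ± 1.54 in the 5 Ctrl mice (mean ± SD), 79.1 ± 4.73 in the 6 Case mice and 82.5 ± 4.23 in the 6 Dapa mice. Case 1, 2, 3, 4 and 6 lay between 74.9 and 80.5, all below the lowest Ctrl mouse at 83.4, whereas Case 5 was at 87.7, above every Ctrl mouse. The mean difference between Case and Ctrl was −6.55 points, that between Dapa and Case 3.35 and that between Dapa and Ctrl −3.20. The same medians over all genes with a summit in any mouse were 73.3 ± 2.79 in the 5 Ctrl mice (mean ± SD), 60.4 ± 10.0 in the 6 Case mice and 65.5 ± 7.63 in the 6 Dapa mice, so that all genes had the same order of groups. List length moved with these values, and its part was not tested beyond the following settings. On equal-length lists the difference of the members was −3.48 between Case and Ctrl, 1.83 between Dapa and Case and −1.66 between Dapa and Ctrl. Over all genes the difference between Case and Ctrl was −12.9 on whole lists and −7.09 on equal-length lists. That between Dapa and Case was 5.10 and 1.67, and that between Dapa and Ctrl −7.84 and −5.42. Without Case 2, 3 and 4 the difference of the members was −3.48 between Case and Ctrl and 0.280 between Dapa and Case. These mice had the 3 lowest medians of Case on whole lists (74.9, 78.2 and 75.1), so leaving them out moved both differences by construction. On equal-length lists they were at 73.7, 78.1 and 75.1, above Case 1 (71.5) and Case 6 (72.1). Over all genes the Case mice kept (Case 1, 5 and 6) were at 67.9, 74.1 and 64.8 on whole lists.

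**Figure D3:**
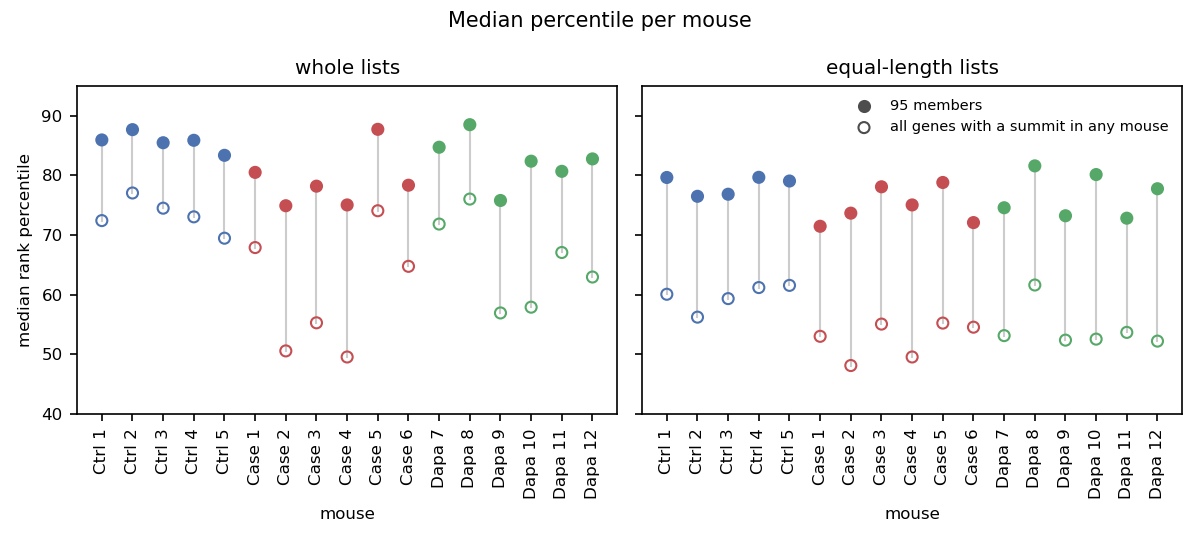
Median rank percentile per mouse over the 95 members (filled) and over all genes with a summit in any mouse (open), on whole lists (left) and on equal-length lists (right), with Ctrl in blue, Case in red and Dapa in green. The members lie above the other genes in every mouse, and the low values of Case 2, 3 and 4 are less marked on equal-length lists.

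The percentage of members with a summit was 88.8 ± 1.76 in the 5 Ctrl mice (mean ± SD), 84.6 ± 4.55 in the 6 Case mice and 87.5 ± 3.49 in the 6 Dapa mice. Case 2, 3 and 4 lacked a summit at 20, 17 and 18 of the 95 members, whereas Case 1, 5 and 6 lacked 11, 9 and 13, and the Ctrl mice 9 to 13. Among the Dapa mice, Dapa 9 lacked 17 and Dapa 12 lacked 14, and the others 8 to 12. Over all genes the group means were 57.4 (Ctrl), 51.7 (Case) and 53.4 (Dapa). Case minus Ctrl was −4.28 percentage points for the members and −5.73 for all genes, or −4.46 and −3.46 on equal-length lists. Dapa minus Case was 2.98 for the members and 1.73 for all genes, or 2.11 and 0.720 on equal-length lists. Without Case 2, 3 and 4, the Case mice with the fewest members, the members were at −0.421 and −0.877, with the short Dapa lists kept. Over all genes the Case mice kept (Case 1, 5 and 6) were at 53.5, 58.0 and 53.2, beside the means of 57.4 in Ctrl and 53.4 in Dapa.

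Single members were compared with limma over all 12239 genes with a summit in at least 5 mice, of which 87 were members. Between Case and Ctrl, 18 genes passed an adjusted p of 0.05 (0.147%), all lower in Case, and 0 members were among them (smallest member adjusted p = 0.0687). At an unadjusted p under 0.05, 15 members were lower and 0 higher, or 17.2% of the members lower. The same held for 14.8% of all genes lower and 0.433% higher, so that the members' share was near that of promoters in general. On equal-length lists 10 members were lower and 2 higher at that p (13.95% of 86, against 11.6% of all genes). Without Case 2, 3 and 4 there were 5 lower and 1 higher (6.98% of 86, against 9.67%). With 1 mouse left out, the count of members was lowest without Ctrl 2 or without Ctrl 3, at 9 (10.3%). The shares of all genes were then 10.4% and 11.2%. The count was highest without Case 5, at 19 lower and 1 higher (23.0%, against 19.5%). An exact permutation test and Fisher's exact test of presence, both adjusted over all genes, called 0 genes. The smallest exact permutation p of a member was 0.00433, and the smallest adjusted permutation p over all genes was 0.211. With groups of 5 or 6 mice, here and in the later comparisons, the p of either test cannot fall far. After adjustment over 12239 genes, 0 calls were therefore nearly fixed by the design. At an unadjusted p under 0.05 these tests had 1979 and 153 genes, of which 15 and 0 were members. The difference was negative for 72 of 87 members (82.8%), with a median of −5.61 points, and for 80.8% of all genes, with a median of −5.91. On equal-length lists it was negative for 55 of 87 members (63.2%) with a median of −2.09, against 63.1% and −2.28. By class, the median difference of the members tested was −5.56 in complex I, −3.81 in complex II, −4.17 in complex III, −11.9 in complex IV and −2.93 in complex V. On equal-length lists these medians were −2.22, −0.819, 2.02, −14.1 and −1.29, so that complex III turned positive, with 5 of its 8 members above 0. Without Case 2, 3 and 4 they were −1.74, −2.88, 2.14, −5.03 and −0.162. For the 14 assembly factors and associated proteins tested the median was −8.88, with 12 of them lower. It was −8.81 on equal-length lists and −2.90 without Case 2, 3 and 4. For the 2 tissue-restricted isoforms tested these medians were −5.47, 12.1 and −9.87.

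**Figure D4:**
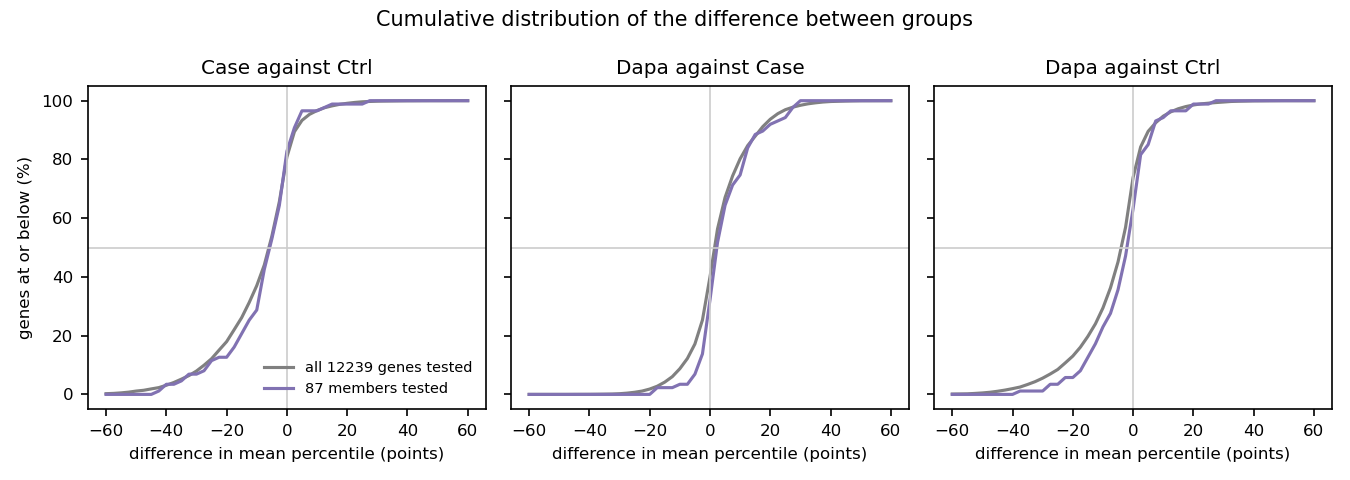
Percentage of genes (y axis) whose difference in mean percentile (x axis, points) was at or below each value, for the 87 members (purple) and all 12239 genes tested (grey), in the 3 comparisons. Between Case and Ctrl both curves cross 50% near −6 points and lie close together.

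In 4 members every Case mouse lay below every Ctrl mouse (4.6%), as in 3.59% of all genes tested, and in 0 members every Case mouse lay above, as in 0.0735%. These were Cox7c, Ndufa8, Uqcrb and Atp5c1. Cox7c (ENSMUSG00000017778.14, chr13:86044816-86046904), a small nuclear subunit of complex IV, was at 98.0, 98.8, 99.0, 95.05 and 96.8 in Ctrl 1 to 5. It was at 80.5, 88.3, 73.6, 91.2, 89.1 and 80.1 in Case 1 to 6, and at 95.04, 90.1, 90.01, 93.0, 89.97 and 85.2 in Dapa 7 to 12. Neither the Case nor the Dapa values overlapped the Ctrl values, although Dapa 7 lay at the edge of Ctrl 4, and the Dapa and Case values overlapped. The difference between Case and Ctrl was −13.7 ± 3.23 points (SE, limma adjusted p = 0.0687, exact permutation p = 0.00433, adjusted 0.211). It was −16.5 on equal-length lists and −14.3 without Case 2, 3 and 4. Cox7c passed the threshold without Case 5 (limma adjusted p = 0.0376), with genes tested down to 1 mouse with a summit (0.0430) and on a log2 rank scale (0.00207), and over all alternatives its adjusted p ran from 0.00207 to 0.235.

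Ndufa8 (ENSMUSG00000026895.7, chr2:36036326-36049406), a subunit of complex I exposed to the intermembrane space, was at 96.2, 97.2, 97.0, 89.4 and 93.4 in Ctrl 1 to 5. It was at 73.8, 69.2, 80.9, 73.8, 87.7 and 77.2 in Case 1 to 6. In Dapa 7 to 12 it was at 74.6, 82.0, 95.3, 57.9, 80.7 and 79.9. Ctrl 4 was the lowest of its group, and every Case mouse, and every Dapa mouse other than Dapa 9, was below it. The difference was −17.5 ± 5.73 points between Case and Ctrl (SE, limma adjusted p = 0.153) and −16.3 ± 5.73 between Dapa and Ctrl (SE, limma adjusted p = 0.287). Its summit is shared with Morn5.

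Uqcrb (ENSMUSG00000021520.4, chr13:66900617-66905378), which encodes the ubiquinone-binding subunit of complex III, was at 89.4, 90.04, 91.8, 91.5 and 90.1 in Ctrl 1 to 5. It was at 58.3, 50.6, 0, 75.1, 29.2 and 80.1 in Case 1 to 6 and at 30.9, 76.0, 86.2, 39.98, 0 and 76.6 in Dapa 7 to 12. The Ctrl mice lay close together, whereas both db/db groups spread widely below them, with no summit in Case 3 and Dapa 11. The difference was −41.7 ± 14.8 points between Case and Ctrl (SE, limma adjusted p = 0.181) and −39.0 ± 14.8 between Dapa and Ctrl (SE, limma adjusted p = 0.324), and both were larger on equal-length lists, at −46.2 and −44.2. A start of Gm10767 lies within 1 kb of this summit.

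Atp5c1 (ENSMUSG00000025781.14, chr2:10056016-10080510), the gamma subunit that forms the rotating shaft of the ATP synthase, was at 91.8 to 96.0 in the 5 Ctrl mice. It was at 90.9, 79.4, 66.8, 77.7, 80.7 and 91.4 in Case 1 to 6 and at 79.3, 93.6, 46.8, 85.3, 83.3 and 90.4 in Dapa 7 to 12. The highest Case mouse lay just below the lowest Ctrl mouse, and Dapa 8 lay inside the Ctrl range. The difference was −12.9 ± 6.27 points between Case and Ctrl (SE, limma adjusted p = 0.326, −6.34 without Case 2, 3 and 4) and −14.2 ± 6.27 between Dapa and Ctrl (SE, limma adjusted p = 0.395), of which the latter was −7.61 without Dapa 9. The start is shared with Kin.

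**Figure D5:**
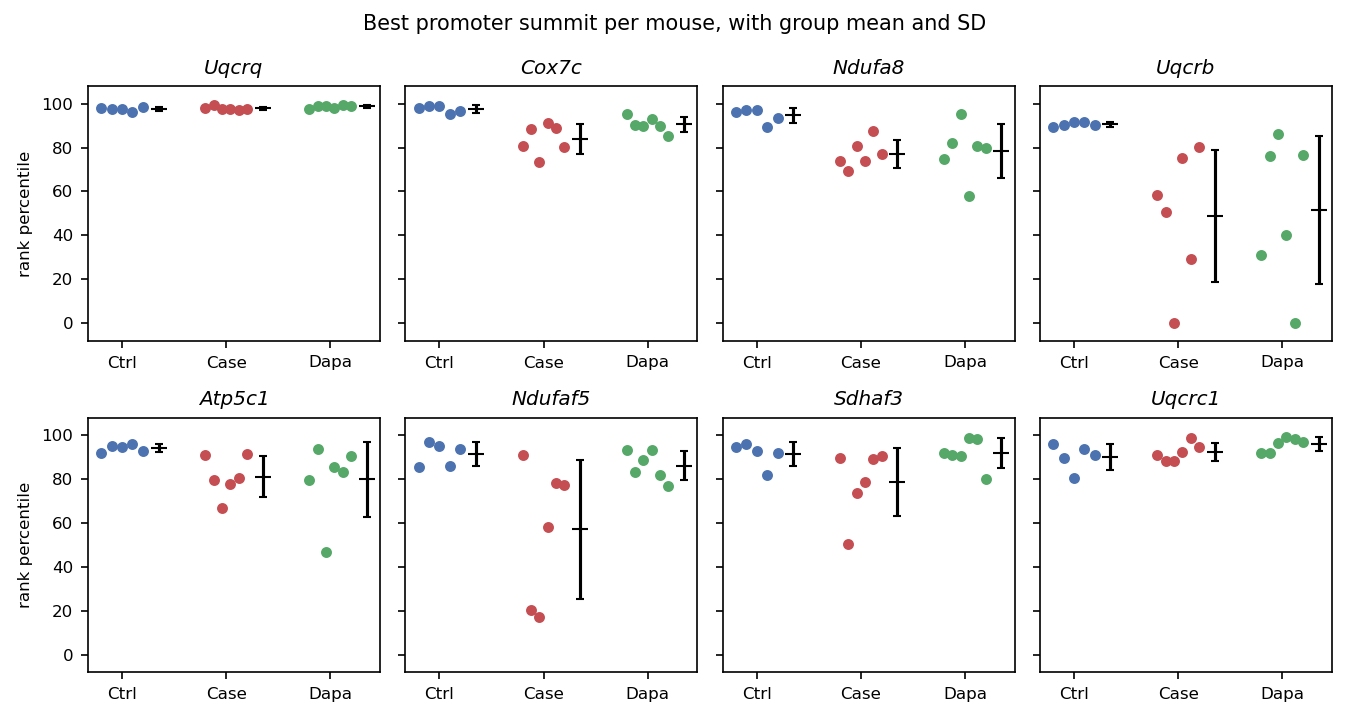
Rank percentile of the best summit (y axis, 0 where none was called) for 8 members in Ctrl (blue), Case (red) and Dapa (green), with 1 point per mouse and the group mean and SD beside it. Uqcrq is above 95 in every mouse, Cox7c, Ndufa8, Uqcrb and Atp5c1 do not overlap between Case and Ctrl, and Ndufaf5 is lowest in Case 2, 3 and 4.

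Ndufaf5, an assembly factor of complex I, was at 85.6 to 96.9 in Ctrl. In Case 1 to 6 it was at 90.9, 20.2, 17.2, 58.3, 78.4 and 77.2, and in Dapa 7 to 12 at 93.2, 83.3, 88.6, 93.0, 81.7 and 76.6. The 3 lowest values were those of the 3 shortest lists. The difference was −34.3 ± 10.0 points between Case and Ctrl (SE, limma adjusted p = 0.115) and 29.0 ± 9.54 between Dapa and Case (SE, limma adjusted p = 0.823). Without Case 2, 3 and 4 these were −9.19 and 3.89, whereas on equal-length lists they were −35.4 and 29.0. On whole lists 15 of 87 members were higher in Case than in Ctrl, and on equal-length lists 32. With the smallest p among them, Cox6b2 differed by 25.9 points (limma adjusted p = 0.427), Cox8a by 2.95 (0.509) and Cox6c by 13.8 (0.550), and none of these passed the threshold. On equal-length lists Cox6b2 was at 42.7 and Cox8a at 6.39, and without Case 2, 3 and 4 Cox6b2 was at 15.9.

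A log2 rank scale, on which the strongest summits are spread further apart, gave more calls. Lower in Case were 587 genes (4.8%) and 5 members (5.75%), namely Cox7c, Uqcrb, Ndufa8, Ndufaf5 and the complex I assembly factor Ndufaf2. Lower in Dapa than in Ctrl were 280 genes (2.29%) and 3 members (3.45%), namely Uqcrb, Cox7c and Ndufa8. Ndufaf2 was named after its values had been seen.

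Dapa was then set against Case, the comparison for the drug within db/db mice. By limma, 1 gene of 12239 passed (0.00817%), and 0 members did (smallest member adjusted p = 0.823). The exact permutation test and Fisher's exact test called 0 genes, with 404 and 11 genes, of which 3 and 0 members, at an unadjusted p under 0.05. At an unadjusted limma p under 0.05, 5 members were higher in Dapa (5.75%) and 0 lower, against 4.71% of all genes higher and 1.27% lower. On equal-length lists 4 members were higher and 1 lower (5.81% of 86, against 6.06% of all genes), and without Case 2, 3 and 4 there were 2 higher and 1 lower (3.49%, against 4.67%). Without Case 5 alone there were 11 higher and 1 lower (13.8%, against 9.16% of all genes). Without Case 1 or without Dapa 12 there were 8 higher and 0 lower (9.20%, against 6.91% and 5.79%). The median difference was 2.47 points over the members, with 59 of 87 above 0 (67.8%), and 1.44 points over all genes, of which 39.98% were below 0. On equal-length lists these were 1.5002 points, with 55 of 87 above 0 (63.2%), and 0.122 points, with 48.6% of all genes below 0. The 5 members were Ndufaf5, Sdhaf3, Uqcr10, Cox7c and Ndufaf6, of which the last was named after its values had been seen.

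Sdhaf3, which helps to mature the iron-sulfur subunit of complex II, was at 89.4, 50.6, 73.6, 78.6, 89.1 and 90.3 in Case 1 to 6 and at 91.9, 91.1, 90.6, 98.5, 98.2 and 79.9 in Dapa 7 to 12. The 3 lowest Case values were again those of Case 2, 3 and 4. The difference of 13.1 ± 5.25 points (SE, limma adjusted p = 0.823) was 2.09 without these mice and 7.49 without Case 2 alone. Uqcr10, a small subunit of complex III, was at 80.5, 74.9, 84.1, 91.2, 92.3 and 93.9 in Case 1 to 6 and at 94.2, 89.1, 96.8, 94.2, 97.2 and 91.1 in Dapa 7 to 12. The groups overlapped, with a difference of 7.603 ± 3.22 points (SE, limma adjusted p = 0.823), or 4.86 without Case 2, 3 and 4. Cox7c differed by 6.75 ± 3.07 points (SE, limma adjusted p = 0.823), and the values of both groups overlapped between 85.2 and 91.2. With the smallest p among members lower in Dapa, Cox4i1 differed by −12.0 points (limma adjusted p = 0.830), Uqcr11 by −18.5 (0.830) and Cox6b2 by −18.7 (0.832). The value of Cox4i1, the widely used isoform of subunit 4, rested on Dapa 10 at 16.3, and without that mouse it was −1.79. Uqcr11 was at −30.7 without Case 3, at −10.02 without Dapa 9 or Dapa 12 and at −34.6 without Case 2, 3 and 4. Cox6b2 was at −29.9 on equal-length lists, at −30.1 without Case 5 and at −8.59 without Case 2, 3 and 4.

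Dapa and Ctrl were compared in the same fit, with the Ctrl mice of the first comparison and the Dapa mice of the other. By limma, 6 genes passed (0.049%), all lower in Dapa, and 0 members did (smallest member adjusted p = 0.287). The exact permutation test and Fisher's exact test called 0 genes, with 1713 and 91 genes, of which 13 and 0 members, at an unadjusted p under 0.05. At an unadjusted limma p under 0.05, 7 members were lower (8.05%) and 1 higher (1.15%), against 10.7% and 0.907% of all genes. On equal-length lists 4 members were lower and 4 higher (9.30% of 86, against 12.1% of all genes in either direction). Without Case 2, 3 and 4 there were 10 lower and 3 higher (15.1% of 86, against 15.1%). With 1 mouse left out, the count was lowest without Ctrl 2, without Ctrl 3 or without Dapa 9, at 3 (3.45%). The shares of all genes were then 7.61%, 7.90% and 9.72%. The count was highest without Dapa 8, at 10 (11.6%, against 14.8%). The median difference was −1.96 points over the members and −3.92 over all genes, with 55 of 87 members (63.2%) and 73.9% of all genes below 0. On equal-length lists 45 of 87 members were below 0 (51.7%), with a median of −0.966, against 61.7% of all genes with a median of −2.10. Every Dapa mouse lay below every Ctrl mouse in 3 members (3.45%, against 2.25% of all genes), and above in 0 (against 0.188%). These were Cox7c, Uqcrb and Ndufa5, of which the last was named after its values had been seen.

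The member with the smallest p among those higher in Dapa was Uqcrc1, a core subunit of complex III. It was at 96.1, 89.4, 80.4, 93.5 and 91.1 in Ctrl 1 to 5 and at 91.9, 91.9, 96.4, 99.2, 98.2 and 97.0 in Dapa 7 to 12, with overlapping ranges. The difference was 5.66 ± 2.63 points (SE, limma adjusted p = 0.409) with 9.25 on equal-length lists and 3.24 without Ctrl 3. Its neighbours in that order were Uqcrh, the hinge subunit of the same complex, at 5.43 ± 2.98 points (SE, limma adjusted p = 0.480, 8.63 on equal-length lists) and Ndufaf1, a complex I assembly factor, at 25.1 ± 15.2 points (SE, limma adjusted p = 0.530). Ndufaf1 had a summit in 3 Ctrl, 3 Case and 6 Dapa mice.

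For members with a summit in only some mice, the groups could be compared in presence, and Fisher's exact test passed for none of them. Cox7a1 was at 50.9, 50.0, 63.7, 66.4 and 33.9 in Ctrl 1 to 5, whereas Case 1, 2, 4 and 6 had no summit, Case 3 was at 44.5 and Case 5 at 52.1. Its difference of −36.9 ± 14.6 points (SE, limma adjusted p = 0.232) was −18.6 on equal-length lists. Ndufa9, a subunit near the ubiquinone site of complex I, had a summit in 5 Ctrl, 4 Case and 2 Dapa mice. Sdhaf4, which protects the flavoprotein of complex II before assembly, had one in 5 Ctrl, 3 Case and 5 Dapa mice, and the 3 Case mice without it were Case 2, 3 and 4. It had the largest standard deviation of all members, 33.8 points over the 17 mice. Atp5o, of the stalk that holds the catalytic head, had one in 5 Ctrl, 4 Case and 5 Dapa mice. Ndufs6, a zinc-binding subunit of complex I, was at 64.5 to 93.8 in Ctrl and at 77.5, 6.83, 2.52, 31.9, 68.4 and 44.3 in Case 1 to 6. Its difference of −41.4 ± 15.3 points did not pass (SE, limma adjusted p = 0.200), and its 3 lowest Case values were again those of the shortest lists. It was −38.0 on equal-length lists and −16.6 without these mice. Ndufc2, an accessory subunit, was as variable without regard to group, with a standard deviation of 31.5 points (SD, n = 17) and a summit in 3 Ctrl, 4 Case and 5 Dapa mice. Uqcr11, Atp5l, Ndufb10, Atp5j2, Atp5mpl and Cox6a1 also varied in presence, with a summit in 11 to 16 of 17 mice.

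Other genes of the pathway were examined in the same fit. Of 37 genes outside the prefixes that encode cytochrome c, cytochrome c1 and assembly factors, all 37 were tested and 0 passed in any comparison by limma. At an unadjusted p under 0.05, 3 were lower and 1 higher in Case than in Ctrl, 2 were higher in Dapa than in Case, and 2 were lower in Dapa than in Ctrl. The shares of all genes at that p were 14.8% lower in Case than in Ctrl, 4.71% higher in Dapa than in Case and 10.7% lower in Dapa than in Ctrl. The median difference of the 37 genes was −3.62 points, against −5.91 over all genes. Of 20 regulators of nuclear respiratory genes, such as Nrf1, Gabpa, Esrra and Ppargc1a, 19 were tested and 0 passed in any comparison by limma. With an unadjusted p under 0.05, 1 was lower in Case than in Ctrl (Tfb1m), and none in the other comparisons. The median difference of the 19 between Case and Ctrl was −2.31 points, against the same −5.91.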

How the data were processed

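ATAC-seq summit lists of 17 mouse kidneys were used as deposited. The authors aligned reads to mm10 with Bowtie2 within the ENCODE workflow, filtered out duplicate reads and reads in blacklisted regions, shifted the cut positions for the transposase, and called peaks with MACS2 for each library. The score the authors deposited for each summit is a −log10 significance value, and whether of p or of q is not given in the sources used here. It depends on read depth, which is unknown, so only ranks within a list were used and no counting intervals are given.

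Starts came from GENCODE vM21 (141767 transcripts of 55450 genes). Genes with a summit within 1 kb in at least 5 libraries were tested by limma 3.58.1 (R 4.3.3) with trend and robust options on the percentile, over all 17 mice, 2-sided, with Benjamini-Hochberg adjustment over all genes tested and a threshold of 0.05. P-values measure the spread between these mice. Exact permutation and Fisher tests, the other distances and filters, equal-length lists, a log2 rank scale, a replicate block and each mouse left out were the alternatives. The scripts were tested on simulated data. No pair of the 136 pairs of libraries had identical lists. The members and lists were chosen with earlier results of these data known. Named were members past the threshold, or with the smallest p where fewer than 3 passed in a direction, the extremes of each complex, up to 15 members of variable presence, those without a summit, the tissue-restricted isoforms and the 5 most variable. The other named members (Ndufv1, Ndufv2, Ndufv3, Sdhc, Sdhd, Atp5j, Cox6b1, Ndufa13 and those in the text) were chosen after their values had been seen.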

Additional observations from a re-analysis of the deposited data

Results flagged for a closer look

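In groups of 5 or 6 mice, a mouse was singled out where its gap to the nearest of the others took more than Dixon's 95% share of the group's range, 0.710 for 5 mice and 0.625 for 6. Of 106 groups of values examined, 15 were marked. A gene without a summit was set to 0 here too. By chance the rule marks about 5% of groups of normally distributed values. Percentiles are bounded, and absent summits set to 0 make a single mouse stand out, so that rate does not apply here. The marked genes were all named members, several of them named for variable presence or a large standard deviation over these same mice. The count of 15 therefore cannot show an excess of outlying mice.

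Single Case mice were marked at Cox6b2, where Case 5 was at 0 and the others at 52.9 or above, at Uqcr11, where Case 3 was at 0 and the others at 61.4 or above, and at Cox6a1, where Case 2 was at 0 and the others at 78.6 or above. Ndufa4l2 had a summit in Case 5 alone among Case mice, at 24.5, and in Dapa 7 alone among Dapa mice, at 38.6. Dapa 9 was marked at Cox8a (85.1, nearest mouse 94.9), Atp5c1 (46.8, nearest 79.3), Ndufb5 (92.6, nearest 97.9) and Atp5o (0, nearest 61.8). Dapa 10 was marked at Cox4i1 (16.3, nearest 64.8) and Atp5e (93.0, nearest 97.2), Dapa 8 at Cox6c (44.6, nearest 16.3) and Dapa 12 at Ndufs6 (0, nearest 67.1). In Ctrl, mouse 3 was marked at Uqcr10 (83.9, nearest 92.7) and mouse 5 at Sdhaf4 (42.8, nearest 74.0).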

How the results depend on the processing

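For Case against Ctrl, 18 genes were called, against 55 with genes in at least 1 library, 1 with at least 9, 7 on equal-length lists (1 higher), 591 on the log2 rank scale (4 higher) and 0 by the exact permutation and Fisher tests. Without Case 2, 3 and 4, chosen after seeing the data, there were 4. Called members numbered 1 with genes in at least 1 library and 5 on the log2 rank scale, in place of 0. For Dapa against Case the count of 1 fell to 0 at 500 bp, at 3 kb, by both exact tests and without Case 2, 3 and 4. For Dapa against Ctrl the 6 genes became 34 with genes in at least 1 library, 0 with at least 9, 285 on the log2 rank scale (5 higher, 3 members) and 0 by both exact tests. The cause was not tested. The percentage of members with a summit differed by −0.421 points between Case and Ctrl and by −0.877, a reversal, between Dapa and Case without Case 2, 3 and 4, a setting that takes out the Case mice with the fewest members and keeps the short Dapa lists. On equal-length lists these were −4.46 and 2.11.

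With 1 mouse left out, the counts for all genes ran from 4 to 48, 0 to 1 and 2 to 9 in the 3 comparisons. For Case against Ctrl they were 5, 4, 8, 12 and 10 without Ctrl 1, Ctrl 2, Ctrl 3, Case 3 and Case 6, and 48 and 35 without Case 5 and Dapa 8. For Dapa against Case 1 gene was called without Case 5 and 1 without Case 6, and 0 without any other mouse. For Dapa against Ctrl there were at most 4 without Ctrl 1, 2, 3 or 4 or Dapa 7, 8, 10, 11 or 12, and 9 without Ctrl 5. The count for members ran from 0 to 1 for Case against Ctrl (1 without Case 5) and was 0 otherwise. The difference in the median member percentile ran from −8.27 to −5.71, 2.15 to 5.07 and −4.40 to −1.86, and that in the percentage with a summit from −5.47 to −3.16, 1.86 to 4.18 and −2.11 to −0.211. Of 472 values of the 18 single-gene results under alternatives, 465 kept their direction and side of the threshold, 7 passed it in the same direction and 0 reversed. Many of these values could not reverse. The permutation test, the other filters and leaving out a mouse of the third group keep the difference itself. None of the 18 passed in the main setting, so the count does not measure how stable they are.

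Same-numbered Ctrl and Case mice deviated with correlations of −0.0891 to 0.0244. No pairing by number showed in these values, which cannot tell whether same-numbered mice were handled together. With the replicate block on 10 mice, 0 genes and 0 members were called (17 members, or 19.5%, and 16.4% of all genes at an unadjusted p under 0.05), as without the block on the same mice (16 members, or 18.4%, and 17.3% of all genes). The blocked difference in the median member percentile was −6.39, and in the percentage with a summit −4.63. Read depth, which is unknown, limits how far an absent summit can be read as closed chromatin.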
